A study of Arabidopsis thaliana with 9 samples.

Results

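The comparison set 3 arrays of mSPL13 seedlings against 3 arrays of SPL13 seedlings of Arabidopsis thaliana, 6 of the 9 arrays of the study, and asked what changed when the transgene could no longer be repressed by the microRNA miR156. The arrays were chosen by the genotype in their titles. SPL13 seedlings were Col-0 plants transformed with the non-mutated SPL13 gene, and mSPL13 seedlings were Col-0 plants transformed with the mutant, miR156-resistant form. Both transgenes were driven by the native promoter, and both groups shared the Col-0 background with whatever copies of SPL13 it carries. Untransformed Col-0 seedlings filled the other 3 arrays, and their levels are given beside the others for some genes only. All seedlings had spent 3 days at 4 °C in the dark and 3 days at 22 °C in light on MS medium with 1% sucrose, and each array held an independent biological replicate from independent seed lots. The number of transgenic lines in a group and how they were selected are not given in the sources used here.

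SPL genes encode plant transcription factors named for the SQUAMOSA promoter that the family binds. miR156 is abundant in young seedlings and represses many SPL transcripts through a short complementary site, and its decline with age is known to release them as the plant passes from the juvenile to the adult phase. A transgene with a changed site escapes this repression, and SPL13 itself is known as a regulator of the step from cotyledon growth to the first leaves. No probe set of the annotation used here carried the name of SPL13, so the level of the transgene was not analysed here. Of the 17 SPL genes listed, 1 had a probe set, AT1G76580, with signals of 142.7, 168.0 and 92.5 in SPL13 and 103.5, 115.3 and 104.8 in mSPL13. Its groups overlapped, and its log2 fold change of -0.24 did not pass the test (adjusted p = 0.601).

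Every array carried a median signal between 176 and 191. Log2 signals correlated at 0.978 to 0.985 within SPL13, at 0.978 to 0.983 within mSPL13 and at 0.959 to 0.974 between the groups. One array stood apart within its group: SPL13 replicate 1 had the lowest signal of the 3 SPL13 arrays for 60 of the 66 chloroplast-encoded genes tested, while its nuclear genes had the same median as those of the other arrays. The counts of the main classes, of the chloroplast complexes and of several gene lists are therefore also given without it, for the complexes by a choice made after seeing the data. Markers of the whole seedling were present in both groups. Of the 4 root genes tested, NAI2 was lower in mSPL13 with a log2 fold change of -0.60, the other 3 were not called, and the median was -0.06. Over all nuclear genes, 1.15% were called lower. PYK10, a root beta-glucosidase, lay between 18256.7 and 19707.2 in SPL13 and between 18530.0 and 19863.5 in mSPL13. LHCB4.1, a light-harvesting protein of green tissue, lay between 21802.8 and 22812.4 in SPL13 and between 21513.0 and 24619.2 in mSPL13. ICL, the isocitrate lyase that turns stored seed oil into sugar, lay between 10174.0 and 11358.4 in SPL13 and between 9548.6 and 10729.8 in mSPL13. The log2 fold changes of PYK10, LHCB4.1 and ICL were 0.04, 0.02 and -0.09, and none of them passed the test.

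Of 13647 probe sets tested with limma across all 9 arrays, 414 (3.03%) passed a Benjamini-Hochberg adjusted p under 0.05 in mSPL13 against SPL13, 254 higher (1.86%) and 160 lower (1.17%). The rises and falls were spread unequally between the genomes of the cell. Among 7226 probe sets of nuclear genes, 173 passed (2.39%), 90 higher (1.25%) and 83 lower (1.15%), and the median over all of them was 0.0. Among 66 probe sets of chloroplast-encoded genes, 48 were higher and 0 lower, with a median log2 fold change of 1.61. Of 23 probe sets of mitochondrially encoded genes, 4 were bright enough to be tested, and each of these was higher. These shares describe the classes, and no test was run between them. The remaining calls came mostly from 6060 probe sets with no gene listed, of which 101 were higher and 73 lower. Levels here are MAS5 signals on a linear scale, and fold changes are on the scale of log2(signal + 20.7), which understates the change of dim genes.

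**Figure D1:**
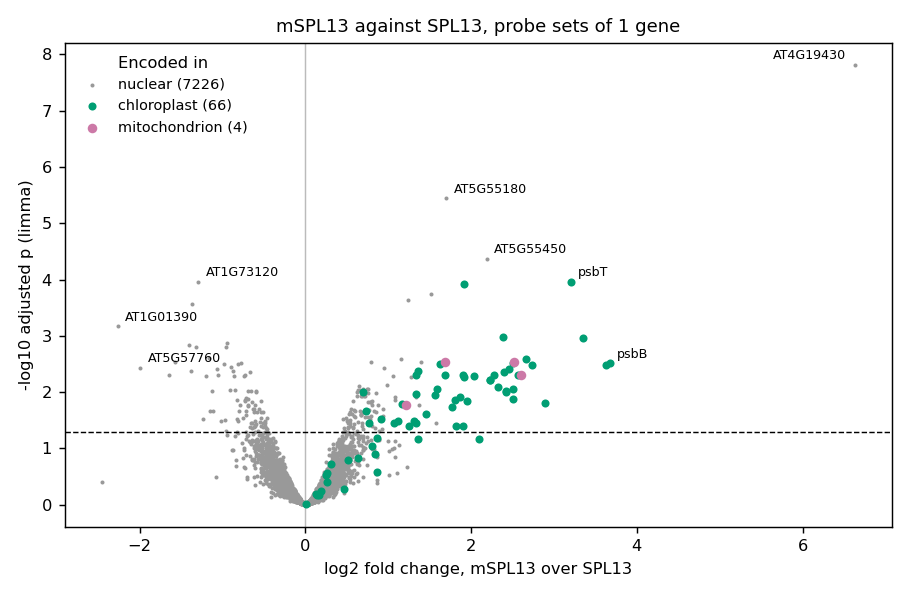
Log2 fold change of mSPL13 over SPL13 (x axis) against the -log10 adjusted p from limma (y axis) for probe sets of 1 gene: 7226 nuclear (grey), 66 chloroplast-encoded (green) and 4 mitochondrially encoded (pink). The dashed line marks an adjusted p of 0.05. Chloroplast-encoded genes lie to the right of 0, while nuclear calls lie on both sides, with AT4G19430 far to the right at 6.63.

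Chloroplast-encoded transcripts were higher in mSPL13 as a class. The chloroplast genome encodes core subunits of both photosystems, of the cytochrome b6f complex, the ATP synthase and the NDH complex, the large subunit of Rubisco, and part of the organelle's own RNA polymerase and ribosomes. The summed signal of the 66 genes was 125351.8, 229887.0 and 238559.3 on the SPL13 arrays and 405929.1, 380496.8 and 428140.7 on the mSPL13 arrays. The groups did not overlap, and SPL13 replicate 1 lay far below the other SPL13 arrays. On the Col-0 arrays the sum was 392132.7, 377628.3 and 331405.1, inside the range of mSPL13 on 1 array and below it on the others, and above every SPL13 array. The mSPL13 sums thus lay near those of untransformed seedlings and the SPL13 sums below them, a position given as levels and not tested here. Fewer chloroplasts or green cells and less chloroplast RNA per cell cannot be told apart by these signals in RNA from whole seedlings. Nuclear genes of green tissue were measured on the same arrays, and the 3 light-harvesting genes tested had log2 fold changes from -0.08 to 0.21 and the 4 nuclear photosystem subunits from -0.13 to 0.03.

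Without SPL13 replicate 1 the median of the chloroplast-encoded genes was 1.16, 46 of the 66 passed the test and 0 were lower. The median over the genes on each array, relative to the SPL13 mean, was -0.87, 0.32 and 0.46 in SPL13, 1.68, 1.44 and 1.72 in mSPL13, and 1.48, 1.49 and 1.07 in Col-0. Medians of the nuclear genes lay between -0.03 and 0.01 on the 9 arrays, which were deposited after scaling to a common level, so a shift of a whole array could not be seen. Ratios of 3' to 5' control signals, a measure of RNA integrity, were 1.21 ± 0.0987 (SD, n = 3) in mSPL13 and 1.07 ± 0.019 in SPL13 for ubiquitin, 1.05 ± 0.0497 and 0.951 ± 0.0998 for GAPDH, and 2.87 ± 0.521 and 2.59 ± 0.366 for actin. Two-sided exact permutation tests gave p of 0.1, 0.2 and 0.5, or 0.3, 0.3 and 0.5 after Benjamini-Hochberg adjustment over 3 tests, and 0.1 is the smallest p that 3 against 3 arrays allow. The part of RNA integrity in the organelle difference was not tested.

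**Figure D2:**
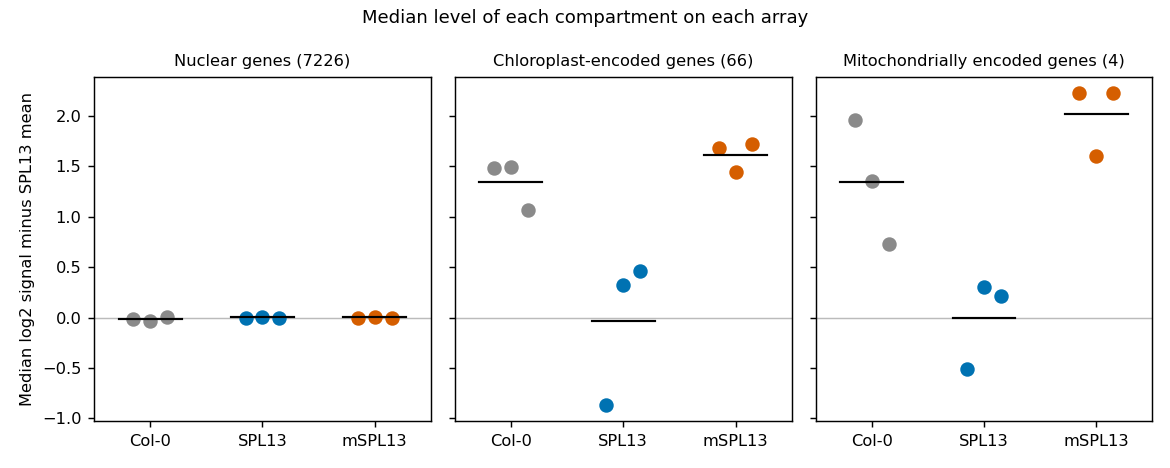
Median log2 signal of the tested nuclear, chloroplast-encoded and mitochondrially encoded genes on each array, minus the SPL13 mean of each gene (y axis), by genotype (x axis). Points are arrays and bars are means of 3 arrays. The nuclear medians lie on 0 in every genotype, while SPL13 is lowest for both organelles and SPL13 replicate 1 is its lowest point.

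Photosystem II, the complex that splits water, held the widest range. Of its 15 genes tested, 9 were higher, with a median log2 fold change of 1.59. The gene psbB encodes the inner antenna protein CP47, and its signals were 126.8, 201.0 and 278.3 in SPL13 and 4894.0, 1885.9 and 2137.3 in mSPL13. The gene psbA encodes the D1 reaction-centre protein and read 199.0, 262.2 and 318.7 in SPL13 against 6933.6, 1728.6 and 3279.8 in mSPL13. For both genes every mSPL13 array lay several times above every SPL13 array. Their log2 fold changes were 3.67 ± 0.54 (moderated SE; adjusted p = 0.00303) and 3.63 ± 0.55 (adjusted p = 0.00336), and psbT, a small subunit encoded beside psbB, rose by 3.2 ± 0.31 (adjusted p = 0.00011). At the other end, psbE, a subunit of cytochrome b559, read 3284.1, 3815.0 and 4911.5 in SPL13 and 4552.3, 3754.4 and 4825.7 in mSPL13, and its groups overlapped. The same held for psbF, psbJ and psbL, whose log2 fold changes were 0.19, 0.17 and 0.26 and which did not pass the test.

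Photosystem I, the NDH complex and the RNA polymerase were higher almost throughout. Of 7 genes of photosystem I and its assembly factors ycf3 and ycf4, 6 were higher, with a median of 2.39 and a range from 0.87 for psaJ to 2.89 for psaA. psaA encodes a reaction-centre subunit, with signals of 82.8, 611.4 and 813.6 in SPL13 and 2176.4, 3436.5 and 2887.7 in mSPL13. SPL13 replicate 1 was far dimmer than the other SPL13 arrays for this gene, and the call was lost when either of 2 arrays was left out. Of 9 genes of the NDH complex, which carries electrons around photosystem I, 8 were higher, with a median of 1.90 from 0.26 for ndhC to 2.28 for ndhD. Among the 8 called, ndhJ had the smallest moderated SE. It read 145.1, 213.4 and 235.4 in SPL13 and 804.4, 668.4 and 934.2 in mSPL13 (log2 fold change 1.92 ± 0.19, adjusted p = 0.000118). All 4 subunits of the plastid-encoded RNA polymerase were higher, with a median of 1.91. Its rpoC1 read 164.3, 656.2 and 828.0 in SPL13 and 5154.0, 3579.4 and 6037.4 in mSPL13, a log2 fold change of 3.35 ± 0.43 (adjusted p = 0.00108). The subunit rpoA changed least of the 4, by 0.69 ± 0.13 (adjusted p = 0.00974).

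Genes of the remaining complexes were higher in mSPL13 too, though not all of them. The gene of the large Rubisco subunit, rbcL, read 163.7, 557.1 and 631.3 in SPL13 and 3397.0, 1555.3 and 2649.8 in mSPL13, a log2 fold change of 2.56 ± 0.42 (adjusted p = 0.00488). Of 5 ATP synthase genes 3 were higher, with a median of 1.34 from 0.80 for atpE to 2.51 for atpF, and of 5 cytochrome b6f genes 4 were higher, with a median of 1.17 from 0.87 for petG to 2.66 for petL. Of 15 ribosomal protein genes 8 were higher, with a median of 1.25. They ran from 0.01 for rps14, whose groups overlapped, to 2.74 for rpl20. The 5 genes of other function, among them clpP for a protease subunit and matK for a splicing factor, were all higher, with a median of 1.57. Without SPL13 replicate 1, photosystem II had 8 calls, ribosomal proteins 7 and every other complex as many as before. The medians were then 1.08 for photosystem II, 1.73 for photosystem I, 1.40 for NDH, 1.61 for the RNA polymerase, 0.79 for the ATP synthase, 0.80 for cytochrome b6f, 0.76 for ribosomal proteins and 1.09 for the other genes, and rbcL had 1.99. Of the 12 largest changes, those not yet named were clpP with 2.51 ± 0.45, rps15 with 2.5 ± 0.37 and rpoC2 with 2.46 ± 0.39, each with groups that did not overlap. Across the class, groups did not overlap for 56 of 66 genes, beside 22.5% of nuclear genes, and 26 genes passed the test in the fit and in all 9 fits that left out 1 array. Of 69 chloroplast-encoded probe sets, petD, ndhF and atpI were too dim to be tested, and ndhH, psbT, psbN, rpoB and petN were below the filter level in SPL13 and passed it through the groups where they are high.

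**Figure D3:**
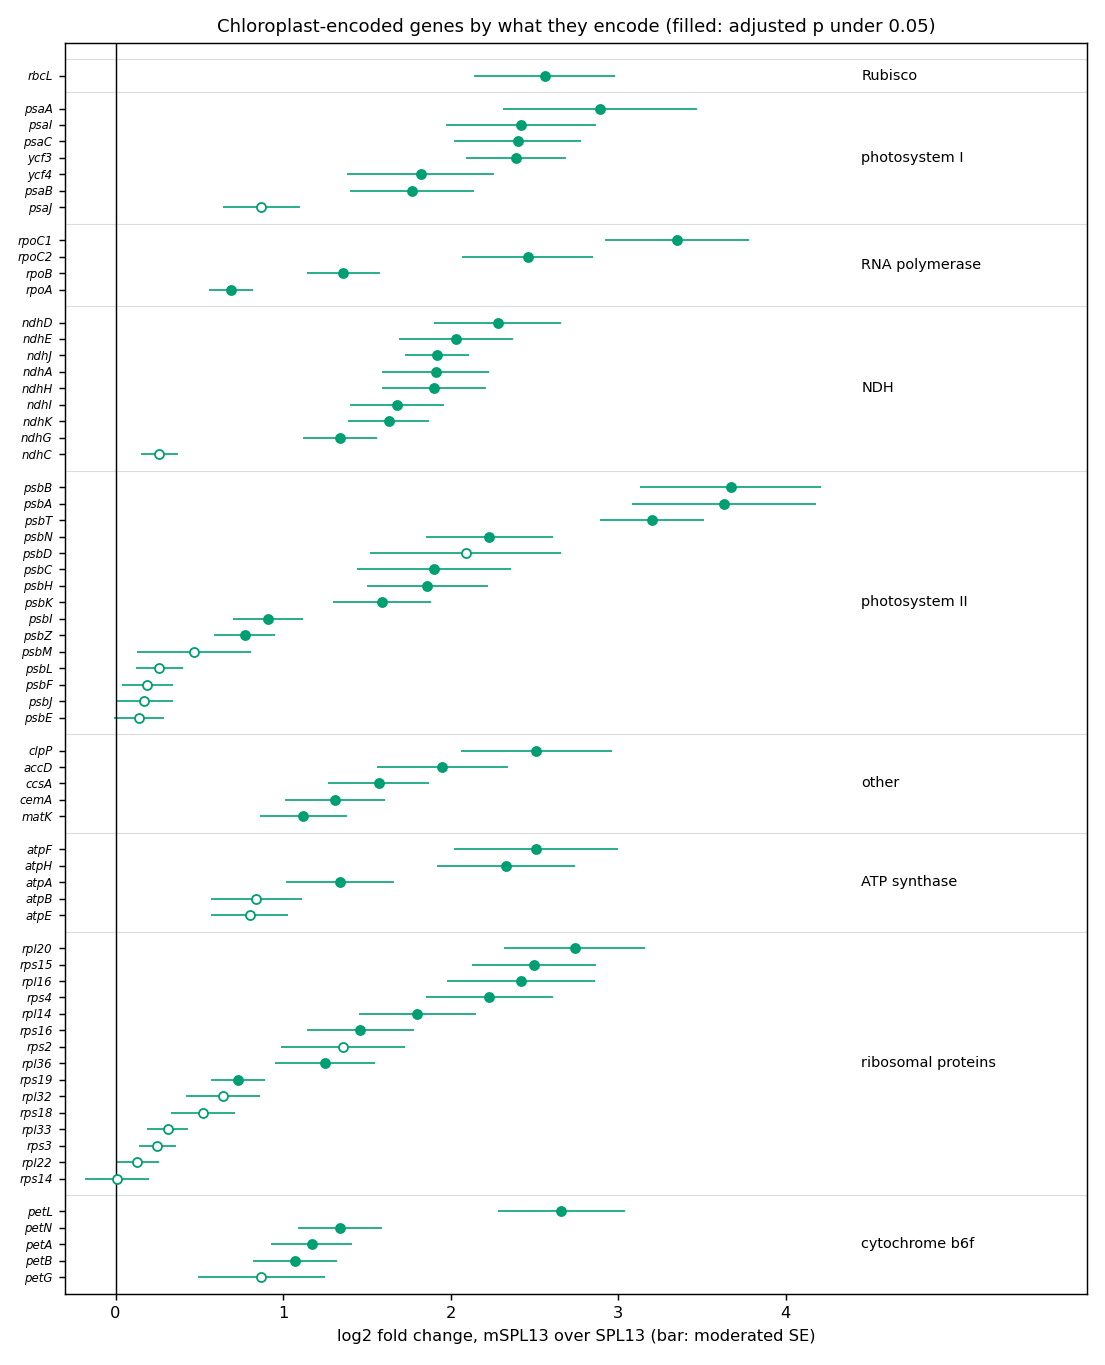
Log2 fold change of mSPL13 over SPL13 (x axis) for the 66 chloroplast-encoded genes tested, grouped by what they encode, with moderated SE bars. Filled points passed the test. Values run from 0.01 for rps14 to 3.67 for psbB, and no point lies below 0.

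Of the 23 mitochondrially encoded probe sets, the 4 that reached the test, nad4, cox1, ccb382 and orfX, were higher in mSPL13. The 19 not tested were dim in both groups, with mean signals from 2.03 to 78.8 in SPL13 and from 2.37 to 98.0 in mSPL13, among them ccb206 at 42.5 and 43.9 and cox2 at 36.4 and 42.7. nad4 and orfX were below the filter level in SPL13 and passed it through the groups where they are high, so their count says little about the class. The gene nad4, for a subunit of respiratory complex I, read 45.4, 104.8 and 102.7 in SPL13 and 593.8, 344.9 and 845.1 in mSPL13. The gene cox1, for a subunit of cytochrome c oxidase, read 131.0, 140.4 and 104.8 in SPL13 and 502.7, 348.4 and 497.3 in mSPL13. For both genes the lowest mSPL13 array was above the highest SPL13 array, and for cox1 the 3 SPL13 arrays lay close together. Log2 fold changes were 2.52 ± 0.37 for nad4 and 1.68 ± 0.24 for cox1 (adjusted p = 0.00287 for each), 2.60 ± 0.43 for ccb382, a gene of cytochrome c assembly (adjusted p = 0.00488), and 1.22 ± 0.25 for orfX (adjusted p = 0.0172). In Col-0 the mean signals were 355.0 for nad4 and 273.0 for cox1, between those of the transgenic groups. Without SPL13 replicate 1, 3 of the 4 passed and the median was 1.87. AT2G07708, which lies in the copy of mitochondrial DNA on chromosome 2 and cannot be told apart from the mitochondrial gene, had a log2 fold change of 1.31 ± 0.25 (adjusted p = 0.0108). It was the 1 probe set tested of 33 in that copy. AT2G07708 too was below the filter level in SPL13 and passed it through the groups where it is high, so its call adds little.

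Nuclear genes of photosynthesis were examined in 3 small lists. None of 3 light-harvesting genes, 4 nuclear photosystem subunits and 3 enzymes of carbon fixation was called, with median log2 fold changes of 0.02, -0.07 and -0.20. PRK, the phosphoribulokinase of the Calvin cycle, read 12981.2, 12042.5 and 14359.9 in SPL13 and 12119.6, 10425.4 and 10872.6 in mSPL13. RCA, which activates Rubisco, read 24207.7, 24566.5 and 22085.5 in SPL13 and 20532.5, 18772.0 and 22344.8 in mSPL13. Both pairs of groups overlapped. PORB, an enzyme of chlorophyll synthesis, had a log2 fold change of -0.05 ± 0.21, and it was the 1 gene of its list tested. CRR42, a nuclear factor of the NDH complex, and HEME2 of tetrapyrrole synthesis are in none of these lists and were called lower, with -0.63 (adjusted p = 0.0201) and -0.50 (adjusted p = 0.0359), as was seen after their values were known. The difference in response between nuclear and chloroplast-encoded genes was not itself tested.

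Among nuclear genes the response was modest in size. The median log2 fold change of the called genes was 0.71 for rises and -0.72 for falls. Among the calls, 15 nuclear probe sets rose at least 2-fold and 18 fell at least 2-fold. The groups did not overlap for any of the 173 called, beside 22.5% of all nuclear genes tested. A call favours groups that lie apart, so this is no further support. Calls were spread over the 5 chromosomes, from 1.98% of the tested probe sets on chromosome 2 to 2.74% on chromosome 4. Of the 173 calls, 52 also passed in all 9 fits that left out 1 array, 22 of them higher and 30 lower. Without SPL13 replicate 1 the nuclear calls were 56 higher and 47 lower. Of the nuclear probe sets tested, 91 lay below the filter level in SPL13, 5 of them called. In mSPL13, 112 lay below it, 8 of them called. These passed the filter through the groups where they are high, which favours a difference, so their calls carry less weight.

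The nuclear gene with the largest change was AT4G19430. Its signals were 1.2, 14.0 and 2.8 in SPL13, 2545.7, 2348.0 and 2804.3 in mSPL13, and 2.4, 29.3 and 2.2 in Col-0. The gene was bright on every mSPL13 array, and on every SPL13 array it was below 20.7, the level under which the dimmest 20% of all values lie. It passed the filter on mean signal only through the mSPL13 arrays, so a gene that passed in this way had to differ, and the size of its change has no fixed value against arrays this dim. The fitted log2 fold change was 6.63 ± 0.28 (adjusted p = 1.53e-08) with 20.7 added and 4.64 with a pseudocount of 100.9. With a pseudocount of 4.7 or with none, the gene did not reach the filter on mean signal. Measured neighbours on the chromosome did not rise with it. On one side AT4G19390 read 160.9, 256.2 and 222.6 in SPL13 and 80.5, 120.9 and 138.2 in mSPL13 without passing the test (log2 fold change -0.81 ± 0.21, adjusted p = 0.0535). On the other side the nearest tested gene, AT4G19450, had a log2 fold change of 0.14 ± 0.14. AT4G19380 and AT4G19440 were too dim to be tested. The gene table used here gives AT4G19430 no name or function.

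A second group of nuclear rises was measured at signals well above background. AT5G55450 read 184.8, 187.7 and 173.9 in SPL13 and 943.3, 966.2 and 803.5 in mSPL13, a log2 fold change of 2.19 ± 0.19 (adjusted p = 4.28e-05). AT5G55180 read 1666.4, 1346.7 and 1558.1 in SPL13 and 5148.6, 4804.2 and 4975.6 in mSPL13, a log2 fold change of 1.70 ± 0.11 (adjusted p = 3.58e-06). In both, the SPL13 arrays and the mSPL13 arrays each lay close together and every mSPL13 array was above all others, with Col-0 at 135.0 ± 50.5 and 1651.4 ± 139.0 (SD, n = 3). AT1G62500 followed with 157.5, 223.8 and 218.5 in SPL13 and 674.1, 643.7 and 507.6 in mSPL13 (log2 fold change 1.52 ± 0.16, adjusted p = 0.000179). AT3G17680 read 266.2, 343.8 and 314.7 in SPL13 and 741.5, 847.4 and 675.2 in mSPL13 (log2 fold change 1.24 ± 0.13, adjusted p = 0.000231). These rises passed the test in every fit that left out 1 array.

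OSM34, which encodes osmotin, a protein known from osmotic stress and defence, was more uneven. It read 196.8, 85.9 and 73.3 in SPL13 and 295.6, 255.5 and 641.4 in mSPL13, with mSPL13 replicate 3 far above the others. Its log2 fold change of 1.58 ± 0.38 passed the test (adjusted p = 0.0358), and the call was lost when SPL13 replicate 2 or 3 or mSPL13 replicate 1 or 3 was left out. SWEET3, a member of the SWEET sugar transporters, read 166.9, 126.0 and 104.9 in SPL13 and 221.2, 370.8 and 321.2 in mSPL13, a log2 fold change of 1.08 ± 0.21 (adjusted p = 0.0120). It was the 1 called of 6 SWEET genes tested, beside 1.25% of nuclear genes called higher. Leaving out SPL13 replicate 3 or mSPL13 replicate 2 or 3 ended its call. The remaining genes among the 20 largest rises ran from 1.39 for AT3G55710 through 1.37 for AT2G37870, 1.35 for AT3G13175 and 1.15 for AT1G30820 to 0.99 for AT5G55520, 0.95 for AT2G41710 and 0.94 for AT1G61450, besides those described with the gene lists. AT3G55710 and AT3G13175 were below the filter level in SPL13 and in Col-0 and passed it through the mSPL13 arrays, as AT4G19430 did. The call of AT2G37870 was lost without SPL13 replicate 2 or 3 or mSPL13 replicate 3, and AT1G61450 kept its call only with SPL13 replicate 2, mSPL13 replicate 1 or a Col-0 array left out.

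The largest fall among called nuclear genes was that of AT1G01390, with signals of 189.9, 176.1 and 342.7 in SPL13 and 15.1, 34.5 and 48.1 in mSPL13. Col-0 read 296.6, 469.7 and 373.7, so the mSPL13 arrays were the lowest of all 9. Its log2 fold change was -2.26 ± 0.27 (adjusted p = 0.000674), and -1.31 with a pseudocount of 100.9, since its mSPL13 signals lie near the dimmest values. AT1G01390 was below the filter level in mSPL13 and passed it through the groups where it is high. UGT72B3, the next measured gene on 1 side and a UDP-glucosyltransferase, had a log2 fold change of -0.33 ± 0.21 that did not pass, and none of the other measured neighbours was called: HTR12, the centromeric histone, with 0.27, TBL25 with -0.44 and AT1G01320 with 0.08 and 0.29 at its 2 probe sets.

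Several falls were measured at high signals and small spread. AT1G73120 read 4560.6, 4410.6 and 4431.1 in SPL13 and 1899.1, 1803.7 and 1730.9 in mSPL13, a log2 fold change of -1.29 ± 0.13 (adjusted p = 0.00011). AT1G67910 read 3895.3, 3646.7 and 3365.3 in SPL13 and 1524.5, 1716.2 and 947.9 in mSPL13, a log2 fold change of -1.41 ± 0.19 (adjusted p = 0.00146). In both, the lowest SPL13 array was about as bright as the lowest Col-0 array and far above every mSPL13 array. MSRB6, a methionine sulfoxide reductase that repairs oxidised methionine, read 2448.2, 1176.6 and 1472.9 in SPL13 and 477.3, 497.3 and 537.7 in mSPL13. Here the SPL13 arrays were scattered and the mSPL13 arrays nearly equal, and the log2 fold change was -1.65 ± 0.27 (adjusted p = 0.00488). It was the 1 called of 5 methionine sulfoxide reductase genes tested, beside 1.15% of nuclear genes called lower. The other 4, MSRB5, MSRB9 and MSRB3 among them, had negative values too, and the median of the family was -0.29.

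AT5G57760 read 459.5, 612.2 and 666.7 in SPL13 and 110.5, 190.7 and 100.4 in mSPL13, and AT1G06830 read 251.2, 295.8 and 338.5 in SPL13 and 72.1, 136.6 and 60.4 in mSPL13. mSPL13 replicate 2 was the highest mSPL13 array for both and still below every SPL13 array. AT1G06830 was below the filter level in mSPL13 and passed it through the groups where it is high. The log2 fold changes of AT5G57760 and AT1G06830 were -1.99 ± 0.31 (adjusted p = 0.00365) and -1.57 ± 0.23 (adjusted p = 0.00293). BZIP61, a bZIP transcription factor, fell from 456.8, 611.0 and 501.5 to 243.9, 179.3 and 244.1, a log2 fold change of -1.16 ± 0.16 (adjusted p = 0.00249), as the 1 called of 8 bZIP factors tested. UGT76C2, which attaches glucose to the hormone cytokinin, read 677.8, 843.1 and 877.1 in SPL13 and 405.1, 371.5 and 402.8 in mSPL13, and its groups did not overlap. Its log2 fold change of -0.98 ± 0.15 (adjusted p = 0.00315) was the 1 call among 27 genes tested that carry a UGT symbol, whose median was -0.01. Enzymes of this kind without such a symbol in the gene table are not in that count. Over all nuclear genes, 1.15% were called lower. The other falls among the largest 20 were those of AT5G44580 (-1.38), AT3G59340 (-1.32), AT5G62280 (-1.23), AT2G47780 (-1.15), AT5G51440 (-1.13), AT3G06070 (-1.11), AT4G22490 (-1.07), AT2G34060 (-1.05), AT2G14060 (-1.02) and AT2G25510 (-0.97), besides those described with the gene lists. Of these, AT5G62280, AT2G47780, AT3G06070, AT2G14060 and AT2G25510 lost their call when 1 of 3 or 4 arrays was left out.

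**Figure D4:**
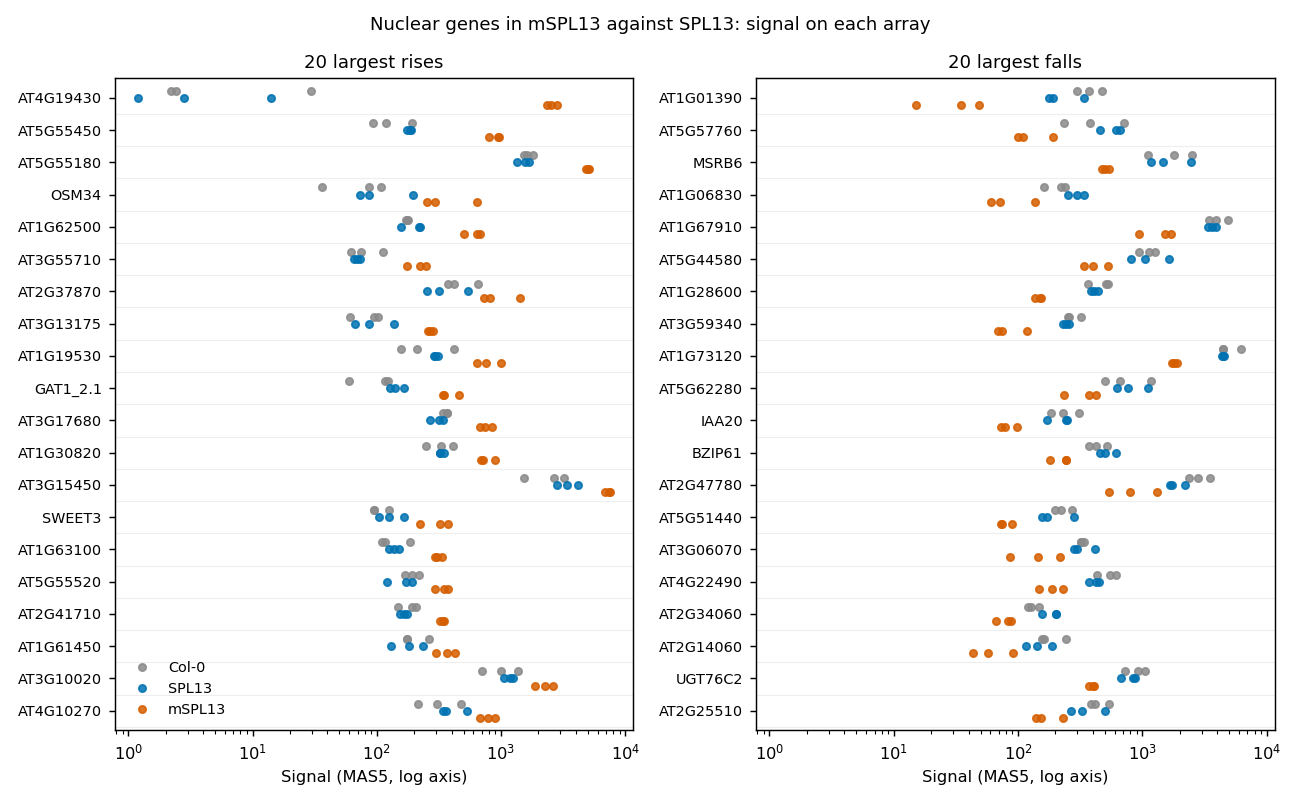
Signal on each array (log x axis) of the 20 nuclear genes that rose most and the 20 that fell most in mSPL13 against SPL13 (y axis), 3 points for each genotype. The SPL13 and mSPL13 points of a gene do not overlap. AT4G19430 spans from 1.2 to 2804.3, while most genes differ about 2- to 3-fold.

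Auxin-related genes were among the falls. IAA20, a member of the Aux/IAA repressors of auxin signalling, read 169.8, 241.3 and 248.6 in SPL13 and 78.4, 98.1 and 73.4 in mSPL13. HAT2, an auxin-induced homeobox factor, read 518.2, 554.5 and 522.3 in SPL13 and 328.8, 256.4 and 261.4 in mSPL13. Neither pair of groups overlapped, and the Col-0 means of 241.0 and 632.0 were nearer to SPL13. IAA20 was below the filter level in mSPL13 and passed it through the groups where it is high. Log2 fold changes were -1.20 ± 0.20 for IAA20 (adjusted p = 0.00516) and -0.87 ± 0.14 for HAT2 (adjusted p = 0.00425), and both passed in every fit that left out 1 array. Of the 4 auxin response genes tested, 2 fell and 0 rose, with a median of -0.51, beside 1.15% of nuclear genes called lower. IAA20 was the 1 called of 2 Aux/IAA genes tested, and the other had a log2 fold change of 0.04. All gene lists here were chosen with earlier results of these data known, so their counts describe the members and are no independent support. The hormone-conjugating enzymes GH3.3 and WES1 (GH3.5) had log2 fold changes of 0.17 ± 0.16 and -0.14 ± 0.15, and their groups overlapped.

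Of 11 listed loci of a GDSL lipase cluster on chromosome 1, 8 had a probe set, 3 were tested and 2 were lower, beside 1.15% of nuclear genes called lower. Neighbouring genes of this type encode secreted lipase-like enzymes, and the list was drawn up after the fold changes had been seen, so its count is a description only. AT1G28600 read 440.1, 389.1 and 412.3 in SPL13 and 154.3, 151.4 and 137.9 in mSPL13, a log2 fold change of -1.37 ± 0.15 (adjusted p = 0.000268). AT1G28570 read 666.5, 590.7 and 594.3 in SPL13 and 373.9, 317.0 and 278.1 in mSPL13, a log2 fold change of -0.90 ± 0.14 (adjusted p = 0.00353). Both sets of groups were well apart. AT1G28580, the other tested member, had overlapping groups and a log2 fold change of -0.32 ± 0.16. Near-identical neighbours can share probe signal, so the members are not independent.

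Some genes of cell division were among the rises. A list named for kinesins and cytokinesis, which also holds genes such as 3xHMG-box2, was drawn up after the fold changes had been seen. Of its 13 tested members, 9 were higher and 0 lower, with a median of 0.69, beside 1.25% of nuclear genes called higher. Because the list was drawn up in this way, its count is a description only. KEU was its 1 member with a negative value, -0.15 ± 0.12, and did not pass. The highest member of the list was AT1G63100, at 125.2, 151.3 and 138.7 in SPL13 and 332.6, 293.1 and 305.9 in mSPL13 (log2 fold change 1.06 ± 0.18, adjusted p = 0.00516). 3xHMG-box2, which binds condensed mitotic chromosomes, read 911.8, 1037.6 and 866.8 in SPL13 and 1506.7, 1497.0 and 1446.7 in mSPL13 (log2 fold change 0.65 ± 0.11, adjusted p = 0.00773). In both genes the mSPL13 arrays lay close together and above every SPL13 array. FU, a kinase needed to build the new cell wall at division, read 404.8, 539.0 and 456.1 in SPL13 and 893.9, 743.0 and 757.6 in mSPL13 (log2 fold change 0.75 ± 0.14, adjusted p = 0.0103). KINESIN-12B, a motor of the dividing cell's phragmoplast, had a log2 fold change of 0.83 ± 0.18 (adjusted p = 0.0212). The other called members were 3xHMG-box1 with 0.77, AT2G36200 with 0.75, AT4G14330 with 0.69, KICP-02 with 0.68 and AT3G44050 with 0.62. AT4G14330 was below the filter level in SPL13 and passed it through the groups where it is high.

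The count depended on single arrays. Without SPL13 replicate 1 the list held 6 calls, without SPL13 replicate 2 it held 5, without SPL13 replicate 3 it held 4, and without mSPL13 replicate 1 it held 2, while the median stayed between 0.63 and 0.73. AT1G63100 and 3xHMG-box2 passed in every such fit. The separate list of cell division genes, with 4 tested members, had none called and a median of 0.33. AUR1 and AUR2, Aurora kinases of mitosis, had non-overlapping groups and log2 fold changes of 0.43 ± 0.12 (adjusted p = 0.0832) and 0.38 ± 0.11 (adjusted p = 0.0817), and the replication factor PRL had 0.28 ± 0.14.

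Low-oxygen response genes were higher in mSPL13 in part. The list gathers loci known to be induced when oxygen is short, and of 10 tested 5 were higher and 0 lower, with a median of 0.64, beside 1.25% of nuclear genes called higher. AT1G19530 read 287.6, 294.0 and 311.5 in SPL13 and 639.5, 1005.4 and 750.7 in mSPL13, a log2 fold change of 1.34 ± 0.26 (adjusted p = 0.0123). AT4G27450 read 1095.0, 1347.3 and 1487.4 in SPL13 and 2277.9, 2407.5 and 2159.5 in mSPL13, a log2 fold change of 0.80 ± 0.16 (adjusted p = 0.0145). The groups of both genes were apart, and SPL13 replicate 1 was the lowest of its group for each. AT3G10020, AT4G10270 and AT1G33055 had log2 fold changes of 0.94 ± 0.20, 0.92 ± 0.23 and 0.67 ± 0.15 (adjusted p = 0.0196, 0.0454 and 0.0257). PDC2, a pyruvate decarboxylase of ethanol fermentation, had overlapping groups and 0.39 ± 0.21, and AT5G66985 was the 1 member with a negative value, -0.23 ± 0.27. The list held 1 call without SPL13 replicate 1, and likewise without mSPL13 replicate 1 or mSPL13 replicate 2. It held 3 without SPL13 replicate 2 and 2 without mSPL13 replicate 3, with medians between 0.56 and 0.80 in all 9 fits.

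Of 8 tested genes of leucine and branched-chain amino acid breakdown, 3 were higher and 0 lower, with a median of 0.30, beside 1.25% of nuclear genes called higher. MCCA, a subunit of the carboxylase in leucine breakdown, read 963.9, 662.8 and 739.3 in SPL13 and 1396.1, 1200.2 and 1835.2 in mSPL13. IVD, the isovaleryl-CoA dehydrogenase of the same pathway, read 717.7, 588.4 and 627.3 in SPL13 and 886.0, 955.0 and 1001.8 in mSPL13. ETFQO, which passes its electrons to the respiratory chain, read 300.0, 251.9 and 284.5 in SPL13 and 424.9, 388.9 and 570.4 in mSPL13. None of these groups overlapped, and the log2 fold changes were 0.88 ± 0.18 (adjusted p = 0.0166), 0.54 ± 0.12 (adjusted p = 0.0228) and 0.67 ± 0.15 (adjusted p = 0.025). MCCB, the partner subunit of MCCA, had 0.46 ± 0.13 and did not pass (adjusted p = 0.0714). D2HGDH was the 1 member with a negative value, -0.11 ± 0.13. None of the 8 passed when SPL13 replicate 2 or 3 or mSPL13 replicate 1 or 3 was left out, with medians between 0.24 and 0.36.

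Of 17 sugar starvation genes listed, 2 were tested and both were higher, beside 1.25% of nuclear genes called higher. A count over 2 genes says little about the list. GAT1_2.1, a glutamine amidotransferase, read 126.9, 140.9 and 166.3 in SPL13 and 349.8, 455.8 and 338.4 in mSPL13 (log2 fold change 1.28 ± 0.21, adjusted p = 0.00536). AT3G15450 read 4161.0, 2830.5 and 3424.5 in SPL13 and 6909.7, 7495.9 and 7429.1 in mSPL13 (log2 fold change 1.08 ± 0.21, adjusted p = 0.014). Both were lower still in Col-0 on average, at 99.5 and 2467.7. The call of AT3G15450 was lost without SPL13 replicate 2 and without mSPL13 replicate 3.

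**Figure D5:**
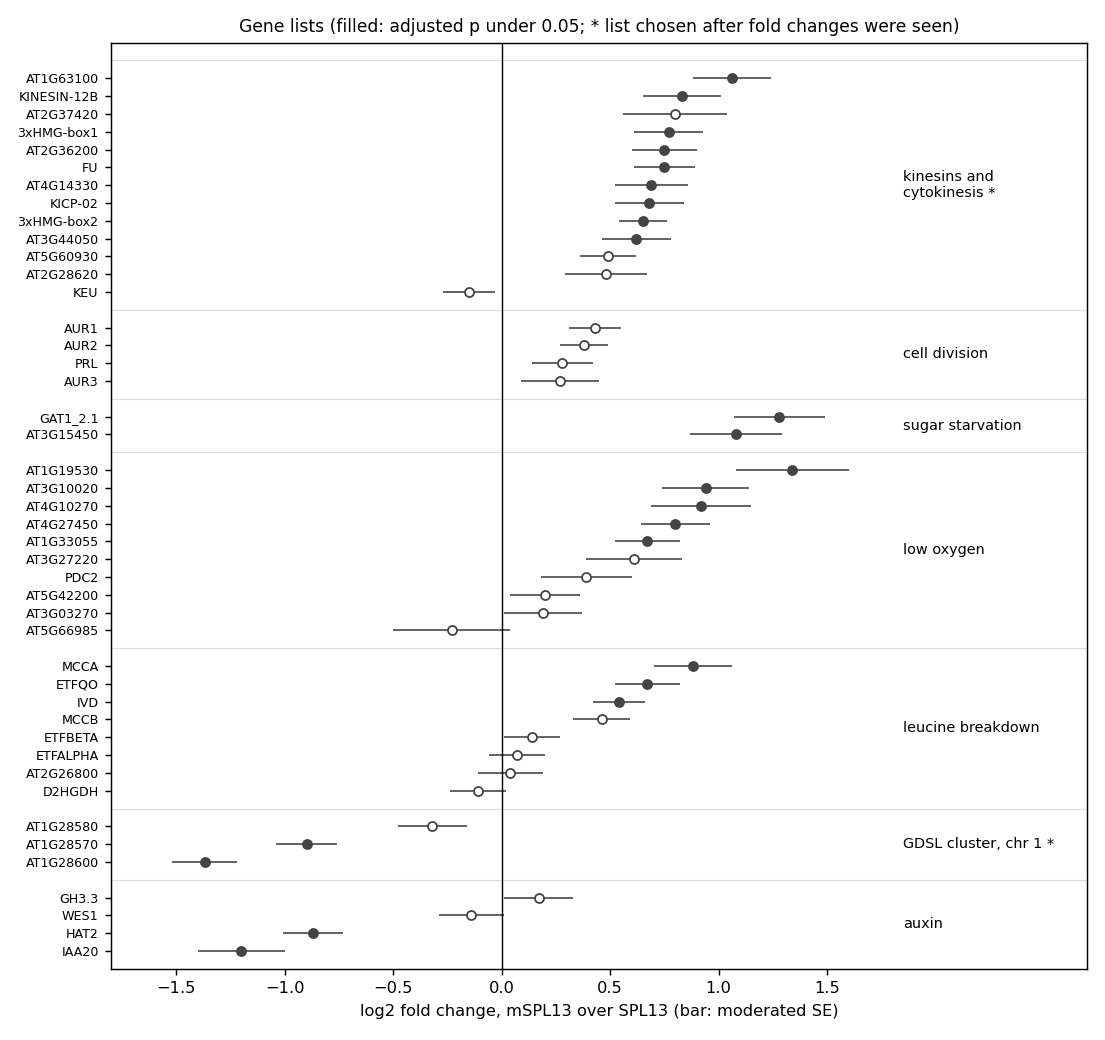
Log2 fold change of mSPL13 over SPL13 (x axis) for every tested member of 7 gene lists, with moderated SE bars. Filled points passed the test, and lists marked with an asterisk were chosen after fold changes had been seen. The other lists were chosen with earlier results of these data known. Called members of the auxin and GDSL lists lie below 0, and called members of the other lists lie between 0.54 and 1.34.

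Few regulators of leaf and phase identity could be tested, and none of these passed. Of 24 listed genes of phase change and flowering time, 3 were tested. The same held for 3 of 25 genes of leaf patterning and shoot meristem and 1 of 17 of the stomatal lineage, so most of these genes were not assessed. YAB5, a factor of leaf polarity, read 286.1, 266.6 and 287.4 in SPL13 and 163.5, 209.3 and 148.4 in mSPL13, and SPCH, which starts the stomatal lineage, read 209.3, 228.7 and 291.5 in SPL13 and 479.6, 417.0 and 301.6 in mSPL13. The groups of both were apart, with log2 fold changes of -0.64 ± 0.23 (adjusted p = 0.162) and 0.66 ± 0.18 (adjusted p = 0.0638). SPCH passed when mSPL13 replicate 3 was left out, and 1 leaf patterning gene was called lower when Col-0 replicate 2 was left out. Of the phase change and flowering list, SMZ, a floral repressor, had -0.35 ± 0.14, GI had 0.28 ± 0.16 and AGL18 had 0.06 ± 0.15. The leaf patterning genes YAB3 and PHV had 0.21 ± 0.13 and -0.02 ± 0.13.

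Genes of pigments, defence compounds and cell walls held few calls. None of 5 flavonoid and anthocyanin genes passed, with a median of -0.39, and DFR, the dihydroflavonol reductase, read 241.5, 267.4 and 208.5 in SPL13, 120.8, 203.8 and 106.8 in mSPL13 and 475.0 on average in Col-0 (log2 fold change -0.70 ± 0.34). Its transgenic groups did not overlap, although the change did not pass (adjusted p = 0.322). None of 3 genes of aliphatic glucosinolate synthesis passed, with a median of -0.47, among them AT2G31790 with -0.47 ± 0.13 (adjusted p = 0.0691), BCAT4 with -0.84 ± 0.29 and GSTU20 with -0.24 ± 0.12. NAI2, a protein of the ER bodies that store beta-glucosidase, fell from 5538.0, 5497.0 and 5234.0 to 3285.1, 4016.4 and 3482.6, a log2 fold change of -0.60 ± 0.11 (adjusted p = 0.0097), while PYK10, the enzyme those bodies store, had 0.04 ± 0.09. The NAI2 call was lost without mSPL13 replicate 1.

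BGLU44, a beta-glucosidase, rose from 3544.9, 3367.5 and 3315.5 to 5451.6, 6658.2 and 5701.6, a log2 fold change of 0.79 ± 0.12 (adjusted p = 0.00287), as the 1 called of 8. Of 12 expansins, proteins that loosen the cell wall, EXLB1 alone passed, with 0.59 ± 0.12 (adjusted p = 0.0206), and the median was -0.20. Its call was lost without any 1 of 5 transgenic arrays. Over all nuclear genes, 1.25% were called higher. EXPA8 had -0.89 ± 0.28 and EXPA15 -0.53 ± 0.16 without passing, and none of 7 xyloglucan endotransglucosylases passed, with a median of -0.19, from -0.53 for XTH16 to 0.55 for XTH32. Of the cold and dehydration genes, LTI30 and COR47 had 0.43 ± 0.14 and 0.25 ± 0.16 beside the rise of OSM34, and DEWAX (AT5G61590), a repressor of wax synthesis, had 0.36 ± 0.34. In the families found by symbol, none of 13 cytochrome P450 genes (median 0.17), 9 glutathione S-transferases (median -0.23), 4 bHLH, 4 WRKY and 4 MADS-box factors (medians -0.08, 0.03 and -0.23), 2 glutaredoxins and 2 peroxidases (medians 0.16 and 0.28) was called, nor were NAC014 (0.05) and TCP15 (-0.25).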

How the data were processed

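RNA of 3 mSPL13, 3 SPL13 and 3 Col-0 seedling samples was hybridised to 1-colour Affymetrix arrays. The authors deposited 1 intensity per probe set on a linear scale, made with GCOS and MAS5 (versions not given), per the submitters' processing notes. Of 22746 probe sets other than controls, 13513 pair with 1 gene in the platform annotation, 13436 of these were found in the TAIR10.1 RefSeq gene table, 503 pair with several genes and 8730 (38.4%) have none listed. Genes in the chromosome 2 copy of mitochondrial DNA were kept apart.

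Signals were transformed as log2(signal + 20.7), the 20th percentile of all values, and 13647 probe sets with a mean above 6.922 (the 40th percentile) were kept. The model of limma 3.58.1 (R 4.3.3) had a mean for each genotype and used all 9 arrays, which share 1 estimate of the spread. It had 6 residual degrees of freedom, 7.92 from the prior and a trend on mean signal. Every adjusted p of a gene is limma's after Benjamini-Hochberg adjustment over all 13647, with a call under 0.05. Signals carry the SD over arrays and log2 fold changes the moderated SE. Precision is limited by 3 arrays a group. Data were simulated for 13647 probe sets as independent normal values at the fitted spread, with no outlying array and no filter step. There, 56.7% of 67 probe sets changed 1.5-fold, 98.5% of 67 changed 2-fold and 100% of 66 changed 4-fold were recovered. Of the calls, 4% were unchanged probe sets. Real arrays depart from these settings, so the shares do not measure the accuracy of the calls reported here.

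The members, gene lists and tests were chosen with earlier results of these data known. Named were the 20 nuclear genes with the largest rise and fall among called probe sets with non-overlapping groups, the 12 largest chloroplast changes with each complex's extremes, every tested mitochondrial gene, every called list member and up to 3 others with the smallest p, every measured SPL gene, and the nearest measured neighbours of the largest rise and fall. There were 21 lists and 28 families by symbol, and 2 further lists were drawn up after fold changes were seen. No member was tested of the lists for trichomes, jasmonate and immunity, plastid transcription factors of the nucleus and seed storage, nor of the families of lipid transfer proteins, heat shock proteins, aquaporins, ARR, cytokinin oxidases, MYB, ERF and BBX. The alternatives were 3 pseudocounts, 2 filters, 2 normalizations, no trend, 2 groups only, a replicate block, array weights, no organelle probe sets and each array left out. Figures used Python 3.11.15, numpy 2.4.6, pandas 2.3.3 and matplotlib 3.10.9.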

Additional observations from a re-analysis of the deposited data

How the results depend on the processing

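Of the 414 called probe sets, none changed sign in any of the 12 alternatives or of the 9 fits without 1 array in which it was tested, and 96 were not tested with the filter at the 60th percentile. Of the 173 nuclear calls, 172 were kept with a pseudocount at the 40th percentile, 165 with quantile normalization, 160 with median centring, 149 without the trend and 171 without organelle-encoded probe sets. Without a filter on low signal, the calls were 236 in all (145 higher, 91 lower), 105 nuclear (52 higher, 53 lower) and 30 chloroplast-encoded. Of the 173 nuclear calls, 93 were then kept and 80 lost. Those lost included OSM34, AT2G37870, AT1G19530, AT3G15450, MCCA, ETFQO and KINESIN-12B. With array quality weights the calls were 688 (394 higher, 294 lower) and 298 nuclear (155 higher, 143 lower). With the filter at the 60th percentile, 1 mitochondrial gene was called. Leaving out 1 array gave 200 to 468 calls (120 to 275 higher, 72 to 193 lower), 79 to 194 nuclear calls (36 to 98 higher, 42 to 96 lower), 27 to 51 chloroplast-encoded and 3 to 4 mitochondrial ones. The total fell by more than 1.5 times without SPL13 replicate 1 (252) or 3 (213) and without mSPL13 replicate 1 (210), 2 (254) or 3 (200). With the replicate number as a block the counts were 257 higher and 174 lower, and 157 of the 173 nuclear calls were kept. Deviations of same-numbered SPL13 and mSPL13 arrays correlated at -0.06, 0.149 and -0.006. With Col-0 the values were -0.042, -0.035 and 0.141 for SPL13 and 0.037, 0.135 and 0.05 for mSPL13. The labels do not say whether a number marks a batch, and these correlations cannot decide it. Depth is not defined for arrays, and dim genes are limited by signal over background.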

Other observations

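Further nuclear genes with a symbol in the gene table passed the test, and those below were chosen after their values were seen. AT1G68570 (NPF3.1) and AT2G26690 (NPF6.2), both of the NRT1/PTR transporter family, moved in opposite directions, by 0.85 and -0.61 on the log2 scale (limma adjusted p = 0.0103 and 0.032). AKINBETA1, a subunit of the energy-sensing kinase SnRK1, had 0.67 (adjusted p = 0.024), and the histone H2B gene HTB2 had 0.58 (adjusted p = 0.0145). DI21, a drought-induced gene, had 0.70 (adjusted p = 0.0089). Among the falls, CHIL, a chalcone isomerase-like protein of flavonoid synthesis, had -0.69 (adjusted p = 0.0176), HEME2 of tetrapyrrole synthesis had -0.50 (adjusted p = 0.0359), CRR42 had -0.63 (adjusted p = 0.0201), the receptor kinase gene FER had -0.56 (adjusted p = 0.0196), and ALN, the allantoinase of purine breakdown, had -0.61 (adjusted p = 0.0395). The carboxypeptidase-like SCPL34 and scpl35 moved in opposite directions, by -0.73 and 0.78 (adjusted p = 0.00488 and 0.0301). Of these genes, AT1G68570, DI21 and SCPL34 passed in all 9 fits that left out 1 array.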
